A study of Bos taurus with 12 samples.

Results

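The genes of glucose uptake and of the steps that lead to lactose were followed in epithelium and intralobular stroma of the mammary gland of dry cows. The set was SLC5A1, SLC2A1, SLC2A3, SLC2A8, B4GALT1, UGP2, PGM1, HK1 and HK2, and each probe set with 1 of these as its sole gene symbol was taken. This gave 8 of the 9 genes, measured by 11 of the 24016 probe sets other than controls, since no probe set here has HK2 as its sole symbol. The mammary biopsies came from 6 dry Holstein cows, about 3 weeks from calving. Their explants were all kept for 2 h with insulin, hydrocortisone and 50 µM BrdU, a label of DNA synthesis, so that both groups carry this treatment and no uncultured tissue was compared. From frozen sections, epithelial cells and intralobular stroma were cut out by laser for each animal, with care to avoid vessels and obvious immune cells in the stroma, and lysates of several slides were pooled for each capture. The lactation number on the labels was 1 for 4 cows, 2 for cow 2 and 3 for cow 1, while the study's methods call all of them multiparous, and this was not reconciled. The 6 epithelial and 6 stromal samples were each hybridized to 1 array.

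Lactose is made in the Golgi of secretory epithelial cells from glucose and UDP-galactose, and it draws water into milk. Glucose enters cells by facilitative carriers of the SLC2A family, also called GLUT, or with sodium by SLC5A1, also called SGLT1. Hexokinases such as HK1 and HK2 trap it as glucose 6-phosphate, PGM1 turns this into glucose 1-phosphate, and UGP2 charges it to UDP-glucose, the source of UDP-galactose. B4GALT1 is the galactosyltransferase that, once bound to α-lactalbumin, the product of LALBA, forms lactose. In other tissues B4GALT1 adds galactose to glycoproteins, and UGP2 and PGM1 also serve glycogen.

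Values are log2 intensities made by RMA, an array summary with background correction and quantile normalization, and a step of 1 is a doubling. Array medians lay between 2.95 and 3.08, so that values near 3 are close to background. Probes differ in brightness, so levels of different probe sets say nothing of relative amounts of RNA, and brighter and dimmer only name the probe sets of a gene by their mean signal. Differences are stroma minus epithelium within cow, errors of differences are standard errors from limma over 6 cows, and adjusted p values come from limma with cow as a block, over all tested probe sets, which are those with a mean of at least 3.57 over the 12 arrays. The captures carried most markers of their labels. KRT8 and EPCAM differed by -3.01 and -4.04 (keratin and adhesion genes of epithelium), and VIM and COL1A1 by 3.51 and 5.43 (filament and collagen genes of stroma). Of 12 luminal epithelial markers 11 passed toward epithelium, and MUC1 did not (-0.27, adjusted p = 0.787). Of 10 fibroblast markers 9 passed toward stroma, and THY1, outside the tested set, differed by -1.45. The mean over 12 luminal epithelial markers ran from 7.13 to 8.03 in epithelium and from 4.26 to 5.54 in stroma, and that over 9 fibroblast markers from 3.39 to 5.90 in epithelium and from 9.72 to 10.5 in stroma. The stromal arrays of cows 4, 5 and 6 stood apart by the control RNA added before amplification, whose mean was 9.07, 10.99 and 10.4 there and at most 7.10 on the other 9 arrays. The median difference over all tested probe sets was -0.18, and centring every array by its own median over these removed it (-0.0096). In captures of tissue, fewer cells of a type and less RNA per cell cannot be told apart.

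Of the 11 probe sets, 8 were among those tested. SLC5A1 and B4GALT1 were higher in epithelium in both of their probe sets, and SLC2A3 was higher in stroma. This is 4 of 8 in epithelium, against 4.76% of all tested probe sets called in that direction, and 1 of 8 in stroma, against 4.54%. These shares depend on the filter, which takes the mean over both tissues. SLC5A1 (stromal means of 2.30 and 2.80) and SLC2A3 (epithelial mean of 3.03) entered it through their higher tissue alone. Without a filter 3 of 11 were called in epithelium, against 1.62%. With probe sets above the array median on at least 8 arrays SLC5A1 dropped out, and 2 of 6 were called, against 3.54%. Over all tested probe sets 477 were called toward epithelium and 455 toward stroma, and after centring on the median 361 and 516, when the members had 3 and 1. The ranges of the tissues did not overlap for 3 of 8 that were higher in epithelium, where 2.79% of all tested probe sets were so, and for 1 of 8 that was higher in stroma, where 3.39% were. SLC2A1, UGP2 and 1 probe set of PGM1 were tested and did not pass. SLC2A8, HK1 and the other probe set of PGM1 lay outside the tested set, and for them the fit of all 24016 probe sets was read. The median difference was -1.53 over the 11 probe sets and 0.066 over all 24016. SLC5A1, B4GALT1 and PGM1 each hold 2 of the 11 probe sets, which measure the same RNA and are not separate results. The 4 calls in epithelium are thus of 2 genes, and of 5222 tested genes 241 were called toward epithelium and 234 toward stroma. Without cow 1, 2 or 3, or without cows 5 and 6, 2 of the 4 calls in epithelium were left, and the call in stroma was kept in each of these fits.

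**Figure D1:**
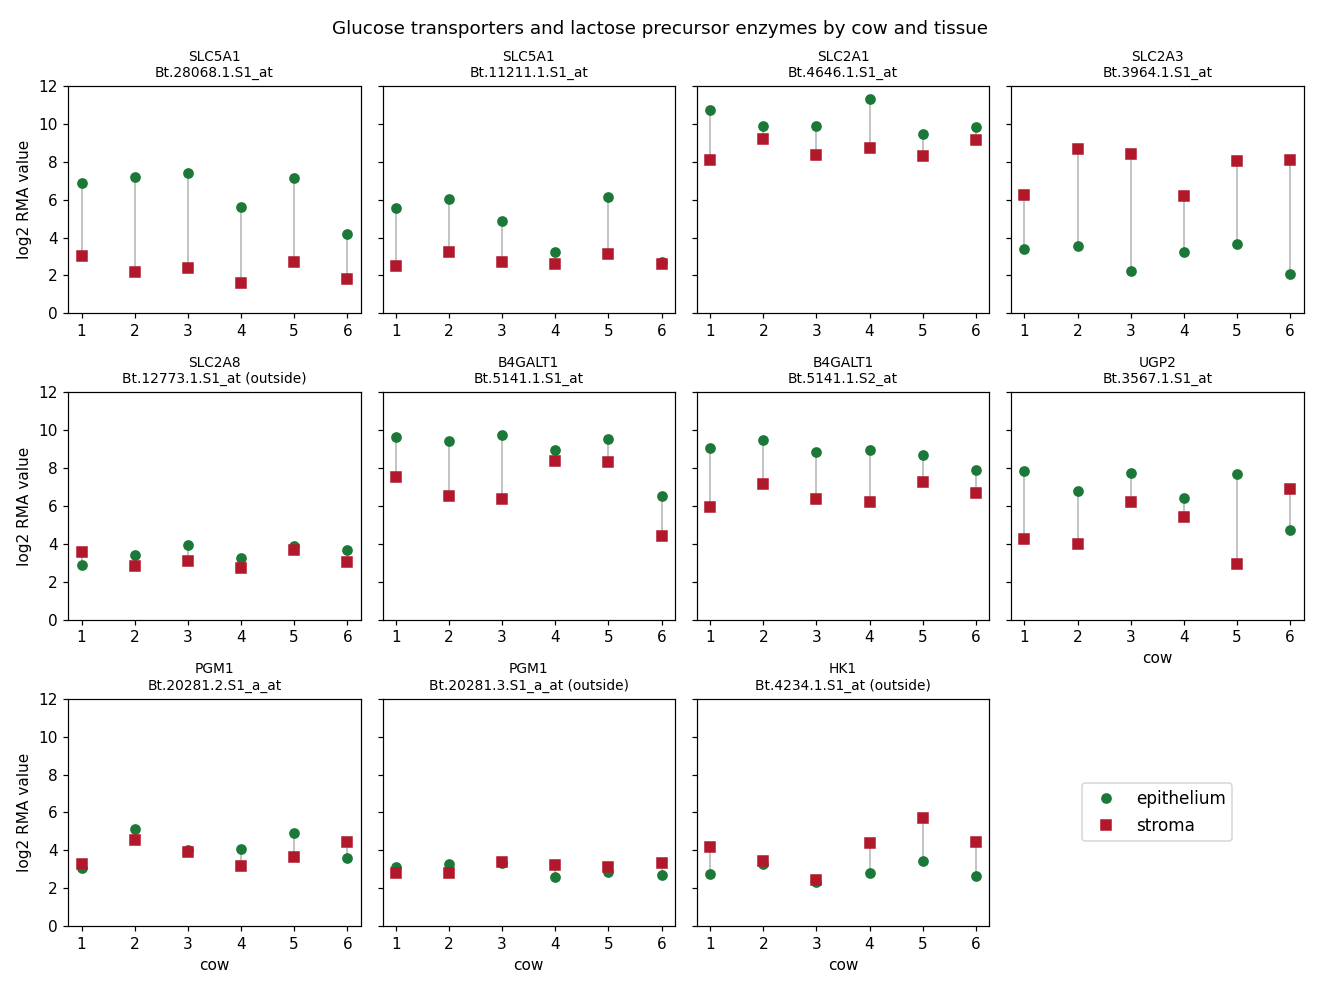
Log2 RMA value (y axis) of each of the 11 probe sets in the epithelium (green circles) and stroma (red squares) of cows 1 to 6 (x axis), with a grey line between the captures of a cow. Probe sets marked as outside were not tested. In each of the 6 cows the red square of SLC2A3 lies above its green circle, and those of SLC5A1, SLC2A1 and B4GALT1 lie below.

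SLC5A1, the carrier that takes up glucose against its gradient with sodium, had the largest difference toward epithelium among the members. It has a pair of probe sets. In the brighter, the epithelial values had a lowest of 4.19, a median of 7.00 and a highest of 7.42. The stromal values had a lowest of 1.62, a median of 2.29 and a highest of 3.04. Every epithelial capture was thus above every stromal one, and 5 of 6 stromal values were below all array medians. The mean was 6.41 ± 1.26 (SD, n = 6) in epithelium and 2.30 ± 0.53 in stroma, a difference of -4.11 (standard error 0.43, adjusted p = 0.000724), or 17.3-fold. As the stromal mean is at background, the fold depends on it and is not exact. Within cows the fold ran from 5.14 in cow 6 to 32.7 in cow 3.

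The dimmer SLC5A1 probe set gave a smaller difference of the same direction. Its epithelial values had a lowest of 2.73, a median of 5.22 and a highest of 6.15, and its stromal values a lowest of 2.52, a median of 2.65 and a highest of 3.26. The ranges met, because the epithelial captures of cow 6 (2.73) and cow 4 (3.24) lay within the stromal range. The difference was -1.97 (standard error 0.50, adjusted p = 0.0425), or 3.91-fold, with the stroma lower in 6 of 6 cows, where the difference of cow 6 was -0.12. The call did not hold when any of cows 1 to 5 was left out (adjusted p up to 0.125), without cows 5 and 6 (0.0667), after centring on the median (0.0636) and without a filter (0.0795). The mean of both probe sets gave a difference of -3.04 (adjusted p = 0.00312).

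The facilitative carriers SLC2A1 and SLC2A3 had means that differed in opposite directions, of which that of SLC2A3 passed the test. SLC2A1, or GLUT1, is the basal carrier of many cells and the main GLUT described in the bovine mammary gland. In epithelium its values had a lowest of 9.48, a median of 9.88 and a highest of 11.3, and its stromal values a lowest of 8.11, a median of 8.56 and a highest of 9.23. The ranges did not overlap, and the epithelium was higher in all 6 cows, by 1.58-fold in cow 2 and 6.25-fold in cow 1. The mean difference was -1.53 (standard error 0.41), with an adjusted p of 0.0508, just above the threshold (unadjusted p = 0.00482). It passed in 5 of 15 alternatives, among them no replicate block (adjusted p = 0.0216) and an intensity trend with a robust prior (0.0169), and its adjusted p rose to 0.145 at most.

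SLC2A3, or GLUT3, a carrier of high affinity known from neurons and white blood cells, had the only call toward stroma among the members. Its epithelial values had a lowest of 2.09, a median of 3.30 and a highest of 3.63, which is the level of the array medians. Its stromal values had a lowest of 6.17, a median of 8.07 and a highest of 8.66. The lowest stromal capture was thus far above the highest epithelial one. Within cows the fold ran from 7.35 in cow 1 to 71.0 in cow 3. The mean was 3.03 ± 0.68 (SD, n = 6) in epithelium and 7.61 ± 1.10 in stroma, a difference of 4.58 (standard error 0.54, adjusted p = 0.00117), or 23.9-fold. Since the epithelial mean is at background, this fold is not exact. The call was kept in all 15 alternatives, with an adjusted p of at most 0.0159.

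The tested markers of endothelium and fibroblasts were also higher in stroma, while few of the listed markers of other cells passed. No list was made for B cells, plasma cells or neutrophils. The part of any cell type in the SLC2A3 result was not tested. Of 9 endothelial markers, 5 were tested and all 5 were higher in stroma, and their mean ran from 2.67 to 3.43 in epithelium and from 6.73 to 7.93 in stroma. Of 10 fibroblast markers, 9 were tested and 9 were higher in stroma. The other, THY1, was outside the tested set and went the other way, by -1.45, with the epithelium higher in 5 of 6 cows. Among macrophage markers, 3 of 7 were tested and 0 passed in limma (1 at an unadjusted p under 0.05), with a mean of 4.18 to 5.61 in epithelium and 5.02 to 6.21 in stroma. Among T and NK cell markers, 5 of 8 were tested and 0 passed in limma (0 at an unadjusted p under 0.05), with means of 4.66 to 5.90 and 4.62 to 6.55. Of 8 markers of myoepithelium and smooth muscle, 6 were tested and 1, TAGLN, was higher in stroma, and of 6 adipocyte markers 2 were tested and 1, FABP4, was higher in stroma, by 4.02. Of the 5 macrophage markers with a probe set, AIF1 was higher in the stroma of 6 of 6 cows, CD68 and CSF1R of 5, ITGAM of 4 and CD14 of 3, with mean differences of 0.74, 1.34, 0.77, 0.53 and -0.02. The 4 hemoglobin and red cell genes with a probe set, HBA, HBB, ALAS2 and SLC4A1, were all outside the tested set, with means of at most 2.08 in either tissue.

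SLC2A8, or GLUT8, an intracellular carrier reported in the bovine gland, was close to background in both tissues. The epithelial captures had a lowest of 2.87, a median of 3.55 and a highest of 3.92, and its stromal values a lowest of 2.74, a median of 3.07 and a highest of 3.68. The ranges overlapped widely. The difference was -0.35 (standard error 0.25, 95% interval -0.93 to 0.23, adjusted p = 0.524 over all 24016 probe sets) and shrank to -0.18 after centring on the median, the size of the shift of all tested probe sets.

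The tissue difference of SLC2A1 was set against those of the other carriers within cow. It was lower than that of SLC2A3 by 6.11 ± 0.88 (SD, n = 6 cows), with values from -7.65 to -5.50, in all 6 cows (exact sign-flip permutation, two-sided p = 0.0312, adjusted p = 0.0312 over 2 pairs, the smallest that 6 cows allow). It was lower than that of SLC2A8 by 1.18 ± 1.29, with values from -3.35 to -0.013 (exact p = 0.0312, adjusted p = 0.0312). As SLC2A8 was close to background in both tissues, its own difference is bounded there, and this value does not show that the pair respond differently. Cow 1 held the most of the latter, which was -0.75 without it. HK1 and HK2 could not be compared, as no probe set here has HK2 as its sole symbol.

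**Figure D2:**
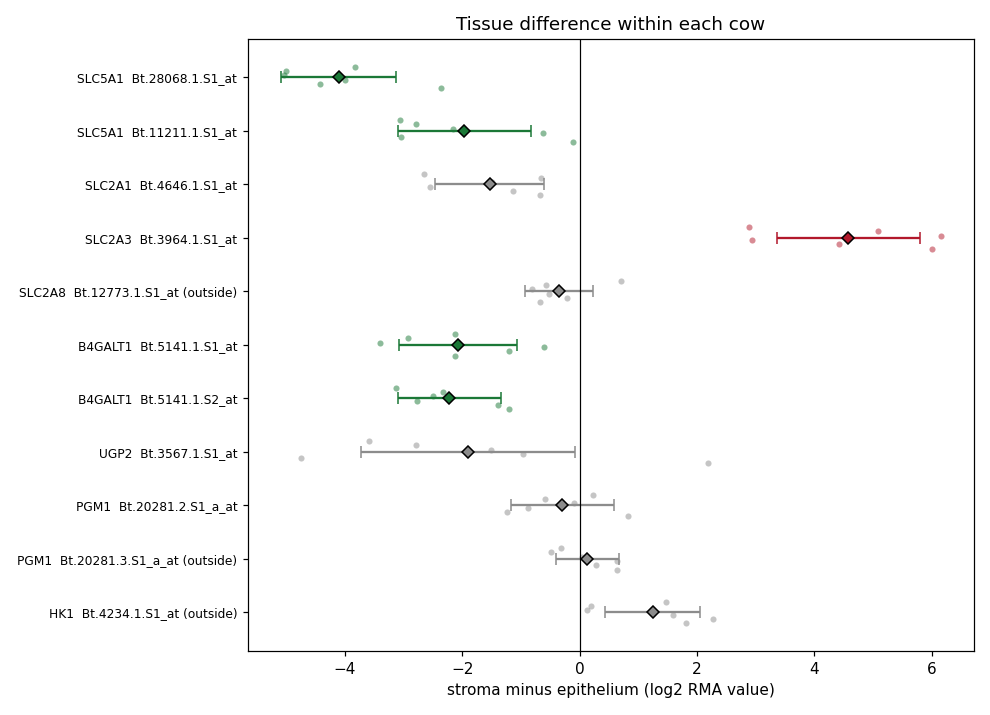
Stroma minus epithelium difference (log2 RMA value, x axis) of each probe set (y axis). Small points are the 6 cows, diamonds are means and bars are 95% intervals from limma. Green and red mark an adjusted p under 0.05 toward epithelium and stroma, and grey marks none. The points of SLC2A3 lie far to the right, and the point of cow 6 for UGP2 lies on the other side of 0 from its 5 others.

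B4GALT1, the catalytic part of lactose synthase, was higher in the epithelium of all 6 cows in both probe sets. In the dimmer, the epithelial values had a lowest of 7.89, a median of 8.92 and a highest of 9.51, and the stromal values a lowest of 5.94, a median of 6.53 and a highest of 7.29. The ranges did not overlap, and the stromal captures lay well above the array medians. The difference was -2.22 (standard error 0.39, adjusted p = 0.00863), or 4.66-fold, and it passed in all 15 alternatives (adjusted p up to 0.0362). The mean over luminal markers was also above the array medians in stroma, at 4.26 to 5.54. The part of epithelial RNA in the stromal values of B4GALT1 and SLC2A1 was not tested.

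The brighter B4GALT1 probe set gave nearly the same mean difference with more spread among cows. Its epithelial values had a lowest of 6.55, a median of 9.48 and a highest of 9.76, and its stromal values a lowest of 4.42, a median of 7.03 and a highest of 8.36. Both tissues of cow 6 were the lowest of their groups, so that the ranges overlapped while cow 6 itself differed by 4.38-fold. The difference was -2.07 (standard error 0.44, adjusted p = 0.0209), or 4.19-fold. Within cows the fold ran from 1.52 in cow 4 to 10.6 in cow 3. This call was lost without the replicate block (adjusted p = 0.0904), with a random block (0.0631), without cow 1, 2, 3 or 6 (up to 0.0713) and without cows 5 and 6 (0.0695). The mean of both probe sets differed by -2.14 (adjusted p = 0.00696).

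UGP2, which makes UDP-glucose, was higher in the epithelium of 5 cows and lower in that of cow 6, and did not pass. Its epithelial values had a lowest of 4.73, a median of 7.24 and a highest of 7.85, and its stromal values a lowest of 2.94, a median of 4.84 and a highest of 6.91. Cow 6 held both the lowest epithelial and the highest stromal value, and cow 5 the lowest stromal one. The difference was -1.91 (standard error 0.81, 95% interval -3.73 to -0.080, adjusted p = 0.195), or 3.75-fold. It ran from a 27.0-fold excess of epithelium in cow 5 to a 4.53-fold excess of stroma in cow 6. Without cow 6 the difference was -2.72 and passed (adjusted p = 0.0350).

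PGM1, which makes glucose 1-phosphate, did not pass in either of its probe sets. In the brighter, the epithelial values had a lowest of 3.07, a median of 4.04 and a highest of 5.12, and the stromal values a lowest of 3.18, a median of 3.79 and a highest of 4.52. The ranges overlapped almost whole, with a difference of -0.30 (standard error 0.39, 95% interval -1.17 to 0.58, adjusted p = 0.687). The dimmer lay outside the tested set at means of 2.98 in epithelium and 3.11 in stroma, at the level of the array medians. Its difference was 0.13 (95% interval -0.41 to 0.67, adjusted p = 0.809). The dimmer turned sign, to -0.035, without cows 5 and 6.

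HK1, the hexokinase of most tissues, had a higher mean in stroma but lay outside the tested set. In epithelium it had a lowest of 2.33, a median of 2.75 and a highest of 3.42, and its stromal values a lowest of 2.45, a median of 4.28 and a highest of 5.70. The stroma was higher in all 6 cows, by as little as 0.12 in cow 3 and 0.19 in cow 2 and by as much as 2.28 in cow 5, while the epithelial values were at background. The difference was 1.24 (standard error 0.34, unadjusted p = 0.00795), and the adjusted p over all 24016 probe sets was 0.123. On the stromal arrays of cows 4, 5 and 6, whose added control RNA was high, HK1 had its 3 highest values, 4.36, 5.70 and 4.45, and the part of this in the difference was not tested.

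Cows differed among themselves in the epithelial level of these genes. Of the 6 tested probe sets with a mean lower in stroma by more than 1, 5 had their lowest epithelial value in cow 6, and in 4 of them cows 4 and 6 held the 2 lowest values. These 4 were both probe sets of SLC5A1, the brighter of B4GALT1, and UGP2. These cows were singled out after the values were seen, and no test was made. LALBA, the partner of B4GALT1, set the same cows apart. Its epithelial value was 1.52 in cow 4 and 1.43 in cow 6, well below the array medians, against 9.52 to 12.04 in the other 4 cows, and its stromal value was 2.95 and 2.10 against 6.98 to 10.4. The luminal markers of cows 4 and 6 were not lower, with means of 8.03 and 7.94 in epithelium, the 2 highest of 6. For SLC2A1 these cows lay apart, with the highest epithelial value in cow 4 (11.3) and the second lowest in cow 6 (9.84). The control RNA of these epithelial arrays was 4.24 and 4.81, within the 3.07 to 6.58 of all 6. By the labels both cows had a lactation number of 1, as did cows 3 and 5.

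**Figure D3:**
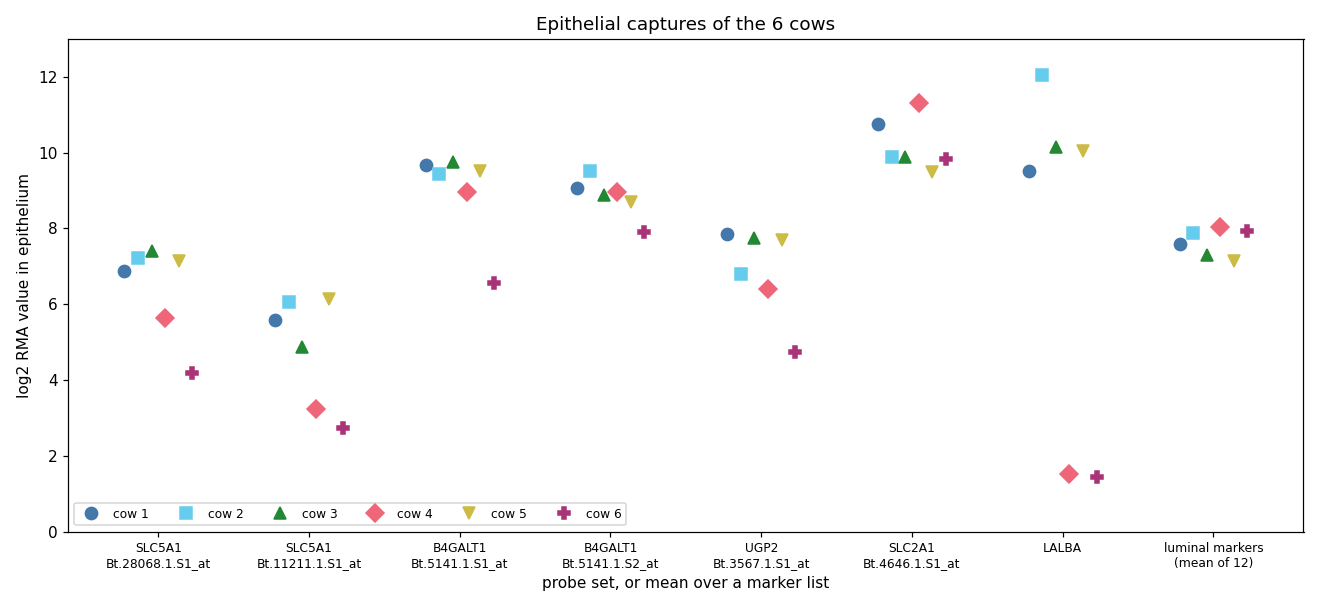
Log2 RMA value in the epithelial captures (y axis) of cows 1 to 6 (symbols) for 6 member probe sets, LALBA and the mean over 12 luminal markers (x axis). Cows 4 and 6 lie lowest for SLC5A1, UGP2 and LALBA, at 1.52 and 1.43 for LALBA, and highest for the luminal markers. Levels are not comparable between probe sets.

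Other genes of glucose metabolism passed the test no more often than all tested genes. Over 7 lists, 44 of 74 genes with a probe set were tested, of which 1 was higher in epithelium and 0 in stroma in limma, and 5 and 3 had an unadjusted p under 0.05. Over all 5222 tested genes, 241 were higher in epithelium and 234 in stroma. At an unadjusted p under 0.05 it was 14.6% and 8.39% of all tested genes, against 11.4% and 6.82% of the 44. The 1 gene that passed was PFKFB2, which makes the activator of phosphofructokinase. Its mean was 5.51 ± 1.06 (SD, n = 6) in epithelium and 3.64 ± 1.26 in stroma. The difference was -1.86 (standard error 0.49, adjusted p = 0.0465), with cow 6 near 0 at 0.051. The median difference over the 14 tested glycolysis genes was -0.025, and over all tested genes -0.20. Opposite to PFKFB2 was LDHA, which makes lactate, with a difference of 1.63 (standard error 0.46, adjusted p = 0.0601) and a higher value in the stroma of all 6 cows. GAPDH, a glycolytic enzyme, did not pass, at 7.51 ± 0.40 and 7.41 ± 0.54 (adjusted p = 0.907).

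The list around lactose and UDP-galactose also holds genes of other steps, PGM3 and G6PC3 among those tested. Of its 9 tested genes, 0 passed in either direction in limma (0 also at an unadjusted p under 0.05), and their median difference was -0.057. LALBA had the largest difference toward epithelium, -1.10 (standard error 0.61, adjusted p = 0.316). It was lower in the stroma of 4 of 6 cows, with differences from -2.54 to -1.64. In cows 4 and 6 its values were no higher than the array medians in both tissues, so their sign says little. Toward stroma it was GALT, of galactose breakdown, with 0.59 (adjusted p = 0.421). Chosen by role after the values were seen, SLC35A2, which carries UDP-galactose into the Golgi, differed by -0.72 (adjusted p = 0.373). The isozymes B4GALT5 and B4GALT6, which act on glycolipids and were chosen likewise, differed by 0.21 and -0.55 (adjusted p = 0.905 and 0.748).

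Of the 13 genes listed as other glucose carriers, 7 have a probe set and 2 were tested, SLC2A6 at 0.23 and SLC5A10 at 0.48 (adjusted p = 0.717 and 0.413). That glucose is the main sugar of SLC5A10 is not established here. SLC2A4, the insulin-responsive GLUT4 of muscle and fat, also chosen after its values were seen, lay outside the tested set at 2.18 ± 0.22 in epithelium and 2.46 ± 0.50 in stroma, below the array medians. The pentose phosphate pathway, which supplies NADPH, had 5 tested genes and 0 calls in limma (2 toward epithelium at an unadjusted p under 0.05), with a median difference of -0.87. The largest difference toward epithelium was that of TALDO1, -1.40 (adjusted p = 0.112), and RPIA, at 0.73 (adjusted p = 0.298), had the largest toward stroma. The 5 tested glycogen genes had 0 calls and a median of -0.041. They lay between -1.94 for PYGL (adjusted p = 0.145), which breaks glycogen down, and 1.91 for PPP1R3C (adjusted p = 0.216), which targets a phosphatase to it. At an unadjusted p under 0.05 in limma there was 1 in each direction, PYGL toward epithelium and GYG1 toward stroma. GYG1 differed by 1.57 (adjusted p = 0.0836) and was higher in the stroma of 6 cows. The 3 tested genes listed under other UDP-sugar routes had 0 calls (0 also unadjusted), between -1.14 for SLC35B1 and 0.71 for UGDH. The place of SLC35B1 in such routes is not established here. Among 6 tested regulators of uptake 0 passed (1 toward stroma at an unadjusted p under 0.05), with MLXIP, a glucose-sensing transcription factor, at 1.26 (adjusted p = 0.0882) and AKT2, a kinase of insulin action, at -0.59 (adjusted p = 0.681).

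**Figure D4:**
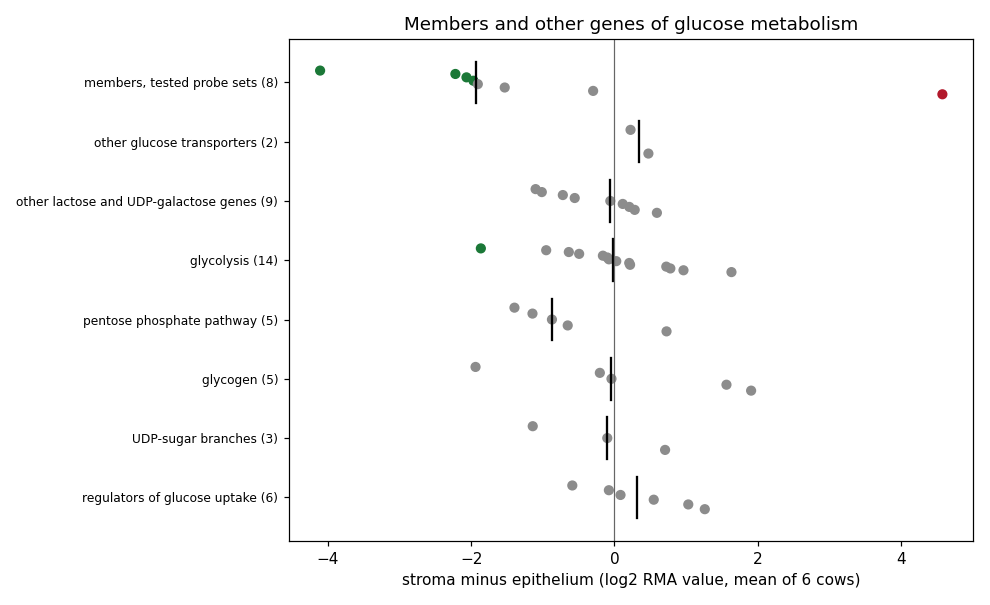
Mean difference over 6 cows, stroma minus epithelium (log2 RMA value, x axis), of the 8 tested member probe sets and of the tested genes of 7 lists (y axis, number tested in brackets). Green and red points passed an adjusted p under 0.05, grey points did not, and black bars are medians. Outside the members, 1 point is colored, PFKFB2 at -1.86.

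The profiles most like those of SLC2A3, SLC5A1 and B4GALT1 were found among 5221 other genes, by the root mean square difference over the 12 arrays after centring each gene. Such genes share the tissue difference by construction, so no test was made. Closest to SLC2A3 were OGN (0.70), a small proteoglycan of matrix, FBLN5 (0.74), a protein of elastic fibers, POU2AF1 (0.82), a coactivator of B cells, and LOC508666 (0.86). Closest to the brighter probe set of SLC5A1 were ACSS2 (1.00), which activates acetate, RAB3IP (1.05), of apical vesicle traffic, ARHGAP26 (1.07), and PRLR (1.08), the prolactin receptor. Closest to the brighter probe set of B4GALT1 were PLIN2 (0.67), a coat protein of lipid droplets, NEDD9 (0.83), SLC31A2 (0.86) and IKBKE (0.92). PLIN2 was at 8.22 in the epithelium of cow 6, its lowest, as was this B4GALT1 probe set.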

How the data were processed

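Laser-captured epithelium and intralobular stroma of 6 cows were measured on 12 Bovine Affymetrix GeneChips. The deposited values are log2 intensities, which per the study's methods the authors computed by RMA with quantile normalization over 24 arrays in Bioconductor 2.0, before any step taken here. The table holds 24128 probe sets, of which 112 are controls. Of the others, 13292 have exactly 1 gene symbol in the platform annotation, 86 several and 10638 none. All 11 probe sets of the members kept their symbol when matched by gene ID to the RefSeq annotation of ARS-UCD2.0.

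The study tested 10031 probe sets that passed detection calls. Those calls were not used here, and as many probe sets, 10031, were taken from the top of the order by mean value. These were fitted in R 4.3.3 with limma 3.58.1 with terms for tissue and for cow (a fixed block) and the default eBayes prior. Benjamini-Hochberg adjustment ran over the whole tested set, with a threshold of 0.05. The study fitted tissue alone. Member probe sets outside the tested set were read from the same fit over all 24016 probe sets other than controls, with p values adjusted over that set. Single values were compared by an exact two-sided sign-flip permutation over cows, whose smallest p with 6 cows is 0.0312. Both tissues of a replicate number came from the same animal, which sets the pairs. The correlation of their deviations from the tissue means over the tested probe sets ran from 0.0257 to 0.201. It was the highest with its own number for cows 1, 4, 5 and 6, and lower than with another number for cow 2 (0.0257 against 0.0268) and cow 3 (0.0359 against 0.0404).

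Other genes are represented by their brightest tested probe set with 1 symbol. The named genes are all members, the genes past the threshold or with the largest differences in 7 lists of glucose metabolism, LALBA, GAPDH, markers of the captures, and for 3 members the 4 genes with the smallest root mean square difference of centred profiles. Cows 4 and 6 and genes named outside this rule, single markers and PLIN2 values included, were chosen after the values were seen. The members, lists and alternatives were chosen with earlier results of these data known. Alternatives were other blocks, another prior, 3 other filters, 2 other normalizations, each cow left out, cows 5 and 6 left out, and the average of a gene's probe sets.
Limma p values weigh a mean difference against the spread of the within-cow differences, moderated by the prior. With 1 array per tissue of each cow, that spread holds capture and array noise as well as differences between cows.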

Additional observations from a re-analysis of the deposited data

Results flagged for a closer look

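Each of the 22 groups of 6 values, from 11 probe sets in 2 tissues, was searched for a value far from the others by Dixon's ratio, and 1 was found, where chance gives about 1 in 20. The epithelial capture of cow 6 had 6.55 in the brighter probe set of B4GALT1, and the nearest of the 5 others had 8.97, a gap of 0.753 of the whole range. The other B4GALT1 probe set was also lowest in cow 6, at 7.89, without such a gap. The cause was not tested.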

How the results depend on the processing

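The count of member probe sets higher in epithelium, 4 of 8, was 2 (of 6 in the fit) with probe sets above the array median on at least 8 arrays, 2 without cows 5 and 6, and 2 to 4 when each cow was left out. Without the replicate block and with a random block it was again 4, but not the same 4. SLC2A1 passed there (limma adjusted p = 0.0216 and 0.0156) and the brighter B4GALT1 probe set did not. The 4 without cow 6 held UGP2 in place of that probe set. Among the 5000 brightest probe sets 3 of 5 in the fit were called, SLC2A1 and both of B4GALT1, and SLC5A1 was not in that fit. The count was 5 with an intensity trend and robust prior and after quantile normalization again, and 3 without a filter and after centring. At an unadjusted p under 0.05 without the replicate block, as the study counted, it was 6, with SLC2A1 and UGP2 added, where 14.1% of all tested probe sets were called toward epithelium. The count in stroma was 1 in every alternative run. Over 153 single differences under alternatives with an adjusted p, 131 kept their direction and side of the threshold, 15 lost their call, 6 gained one and 1 reversed, the dimmer probe set of PGM1 at -0.035 without cows 5 and 6. The causes were not tested, beyond the fewer samples or probe sets that some alternatives hold by construction. The pair values kept their sign in every alternative run, and with 5 cows or fewer no exact test can pass.

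The number of arrays, 6 per tissue, limits the precision. Values near the array medians carry little signal over background, which touches SLC2A8, HK1, PGM1, the stromal values of SLC5A1 and the epithelial values of SLC2A3. GAPDH 3′ probes exceeded its 5′ probes by 0.93 to 4.75 in log2 value, by 0.68 more in stroma (higher in 5 of 6 cows, exact sign-flip p = 0.281). The part of this in the tissue differences was not tested. The study reports a low GAPDH 3′ to 5′ ratio as a sign of suitable RNA, and this was not reconciled with these values.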
